A study of Mus musculus with 8 samples.

Results

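The genes described here encode the proteins of the cytosolic ribosome in mouse embryonic stem cells. They were chosen by symbol from the protein-coding genes of the GENCODE M1 annotation of mm9, as Rpl or Rps followed by digits and at most a short suffix of the letters a, x, y or l, together with Rplp0, Rplp1, Rplp2 and Rpsa. The pattern found 81 genes. The single-exon gene Rpl10l was left out as a retrocopy, which left 80 ribosomal protein (RP) genes of 22359 protein-coding genes, 48 for the large subunit and 32 for the small subunit. Fau, which encodes a ribosomal protein fused to a ubiquitin-like protein, is annotated but lies outside the symbol pattern.

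DNA double-strand breaks were mapped by DSB-seq, in which terminal transferase labels the ends of broken DNA and the labeled fragments are purified and sequenced. The embryonic stem cells were Chd1 KO (genotype Chd1delta/delta) or control (Chd1fl/delta), so that the control cells also carried a deleted Chd1 allele beside the floxed one. Each genotype had 2 biological replicates, which the authors combined before they called peaks. There is therefore 1 list of DSB peaks per genotype, and no value from the lists has a replicate error. The label of the cells could not be checked against marker genes, since no expression values were used here.

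Chd1 is a chromatin remodeler that moves nucleosomes at transcribed genes. The ribosome joins a small subunit, which reads the mRNA, to a large subunit, which forms the peptide bond, and growing cells such as embryonic stem cells transcribe the genes of both at high rates. The genes are short, many carry snoRNAs in their introns, and their mRNAs typically begin with a tract of pyrimidines through which their translation follows nutrient and growth signals.

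The first question was how many RP genes had a DSB peak at their promoter. Peaks are places where reads, extended to a fixed length, rose above the local background, and the summit is the highest point of a peak. A gene was counted when a summit lay within 1 kb of a transcription start site (TSS) of one of its protein-coding transcripts. In Chd1 KO cells 4 of the 80 RP genes had such a summit (5%, Wilson 95% interval 1.96% to 12.2%), beside 15.7% of all protein-coding genes (3515 of 22359, interval 15.2% to 16.2%). The RP genes thus lay below the share of all genes, and no test of this difference was made. In control cells 0 of the 80 RP genes had a summit within 1 kb, a count that allows a share of up to 3.75%, and among all protein-coding genes the percentage was 0 as well. The control list holds 54 peaks and the Chd1 KO list 5671, so the control list says little about single genes. These intervals and limits cover counting error only.

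The cutoffs of the lists set what could be seen. The lowest −log10 Poisson p-value from the peak caller was 4.88 in the Chd1 KO list and 7.13 in the control list. Chd1 KO peaks that reached the control value, an alternative chosen after seeing the data, gave a summit at 4 RP genes (5%) and at 3140 of all genes (14.0%). The weakest Chd1 KO peak had 13 extended reads at its summit and the weakest control peak 17, numbers worked back from the values that the peak caller gave at each summit. The lowest local background was 3.18 reads in Chd1 KO and 2.95 in control. Places with fewer reads than these, and peaks that overlapped blacklisted regions, are not in the lists, so a gene without a summit is a gene without a called peak and not one shown to be free of breaks.

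The RP genes with a Chd1 KO summit were Rpl14, Rpl24, Rpl36al and Rpl7, and each encodes a protein of the large subunit. Among the 48 large-subunit genes the share was 8.33% (interval 3.29% to 19.6%). Among the 32 small-subunit genes no summit was found, which allows a share of up to 9.38%, so the subunits could not be told apart at this number of genes. Counted by the body of the gene, 3 RP genes (3.75%, interval 1.28% to 10.5%) held a Chd1 KO summit between their ends, namely Rpl14, Rpl24 and Rpl36al, beside 15.0% of all protein-coding genes. No control summit lay inside an RP gene, and 7 of all protein-coding genes held one.

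The longest run made only of G and C is shown for the peak at each of the RP genes with a summit, so that the peaks can be compared. Any sequence that holds G or C has such a run, and the runs in other peaks were not measured. Each sequence is 30 bases of mm9, read 5′ to 3′ on the strand of the RP gene, and the capitals mark the run. They lie at chr9:120480704-120480733 (plus strand), chr16:55974486-55974515 (plus), chr12:70285119-70285148 (minus) and chr1:16095317-16095346 (minus).
Rpl14: cgtcttctGCCCCGGGCGGGGGagccccgg
Rpl24: tgagtGCGCCGGGCCCCGGGGGCCGagggg
Rpl36al: ctCCGCCCCGCCCCGCCCCGCCGGGCGCtg
Rpl7: tcgccctCCCGCCGGCCGCCCCaccgcgcg
The runs measured 14 bp at Rpl14, 20 bp at Rpl24, 26 bp at Rpl36al and 15 bp at Rpl7. The base composition of the whole peaks lay between 71.8% GC at Rpl36al and 77.9% at Rpl14.

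Rpl14 encodes a protein on the outer face of the large subunit and was the plainest case of a peak at an RP promoter. Its peak, chr9:120480667-120480870, is 204 bp wide. The summit lay 175 bp downstream of the nearest Rpl14 TSS, in an intron, and no other protein-coding gene had a TSS within 1 kb of it. The authors' fold enrichment at the summit, a ratio of reads to local background, was 4.63, with 19 extended reads over a background of 3.32 and a −log10 q-value of 5.53. In height this was an ordinary promoter peak, since 43.2% of the 3527 Chd1 KO peaks within 1 kb of a protein-coding TSS had a higher fold enrichment. Rpl14 also holds a tract of 14 pyrimidines at its TSS, so its start has the form typical of RP genes and lies next to the peak.

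Rpl36al is a close paralogue of the X-linked gene Rpl36a, and their protein sits near the site where tRNAs leave the ribosome. Its peak, chr12:70284977-70285221, is 245 bp wide and covers the start of Rpl36al and that of Mgat2, a gene for a glycosylation enzyme of the Golgi that is transcribed in the opposite direction. The summit lay 26 bp upstream of the nearest Rpl36al TSS and 119 bp from the Mgat2 TSS at position 70285145, in an untranslated exon of Rpl36al. The run of 26 bp, from 70285121 to 70285146, covers that Mgat2 TSS. The fold enrichment was 4.54, with 18 reads over 3.18 and a −log10 q-value of 5.10. The lists give no strand to a peak, so the share of either gene in this one could not be measured.

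Rpl7 encodes a protein of the large subunit that binds rRNA. Its peak, chr1:16095181-16095517, is 337 bp wide, and the summit lay 599 bp upstream of the Rpl7 TSS outside any annotated transcript of the gene. Rdh10, a retinol dehydrogenase gene transcribed away from Rpl7, has its TSS 513 bp from the same summit, and is thus the nearer gene. The fold enrichment was 4.92, with 25 reads over 4.28 and a −log10 q-value of 7.81. When each summit was given only to the gene with the nearest TSS, an alternative chosen after seeing the data, Rpl7 was no longer counted and 3 RP genes had a summit.

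Rpl24 encodes a protein of the large subunit that reaches across to the small subunit, and its peak rests on a single annotated transcript. The peak, chr16:55974394-55974881, is 488 bp wide with a fold enrichment of 4.95, 21 reads over 3.44 and a −log10 q-value of 6.67. Its summit lay 609 bp downstream of a TSS at 55973917, in an intron of a transcript with 11 exons and a length of 35.1 kb. The other Rpl24 transcripts have 6 or 7 exons and start 8.02 kb or more from the summit. Of the 11 exons, 2 overlap exons of another Rpl24 transcript. In the RefSeq gene table of GRCm38.p6 the gene that follows Rpl24 is Zbtb11, a zinc-finger gene, and the same table lists Zbtb11 as another name of Rpl24. Which gene starts at the peak was not settled here. Without that transcript Rpl24 had no summit within 1 kb, 3 RP genes were counted, and the mean length of Rpl24 fell from 14.9 kb to 8.19 kb.

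**Figure D1:**
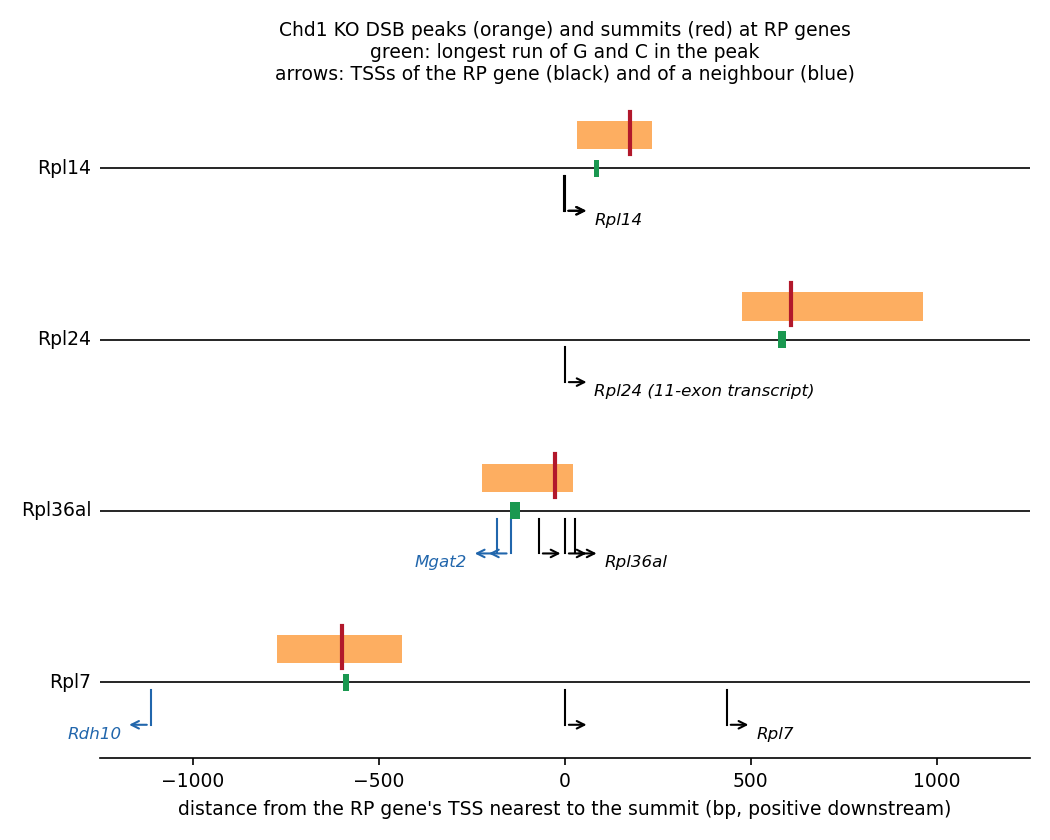
Chd1 KO DSB peaks (orange) at the 4 RP genes with a summit (red) within 1 kb of a TSS, against the distance in bp from the RP gene's TSS nearest to the summit, with positive values downstream. Arrows mark TSSs of the RP gene (black) or of a neighbor (blue) and green bars the longest run of G and C in the peak; the summits lie 175 bp and 609 bp downstream at Rpl14 and Rpl24 and 26 bp and 599 bp upstream at Rpl36al and Rpl7.

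The RP genes were next described by their promoter GC content, taken within 1 kb of the outermost TSS, and by their length, taken as the span of a protein-coding transcript averaged over the gene. The median promoter GC content of the RP genes was 52.6% (quartiles 49.7% and 54.4%), beside 51.2% (quartiles 45.7% and 56.0%) for all protein-coding genes. The RP promoters thus lay in the middle of the range, from 45.6% at Rpl39l to 61.5% at Rpl10a. Genes with a Chd1 KO summit had a median of 58.7%. In length the RP genes stood much lower, with a median of 2.90 kb (quartiles 2.30 and 4.11 kb) beside 13.2 kb (quartiles 4.18 and 35.4 kb) for all genes and 33.1 kb for genes with a summit. A total of 69 RP genes (86.3%, interval 77.0% to 92.1%) were shorter than 5 kb, beside 28.2% of all genes, and none was longer than 30 kb.

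The subunits were alike in both measures. Median GC content was 52.6% for the large and 52.5% for the small subunit, and median length was 2.93 kb and 2.67 kb. The longest RP genes were Rpl24 at 14.9 kb, Rpl22 at 7.42 kb and Rpl5 at 6.23 kb, the last of which encodes the protein that carries 5S rRNA. The shortest were Rpl36 at 0.849 kb, Rps27 at 0.981 kb and Rps21 at 1.07 kb. The lowest promoter GC contents were those of Rpl39l (45.6%), a paralogue of the exit-tunnel gene Rpl39, and of Rps26 (46.4%) and Rps9 (46.7%) of the small subunit.

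**Figure D2:**
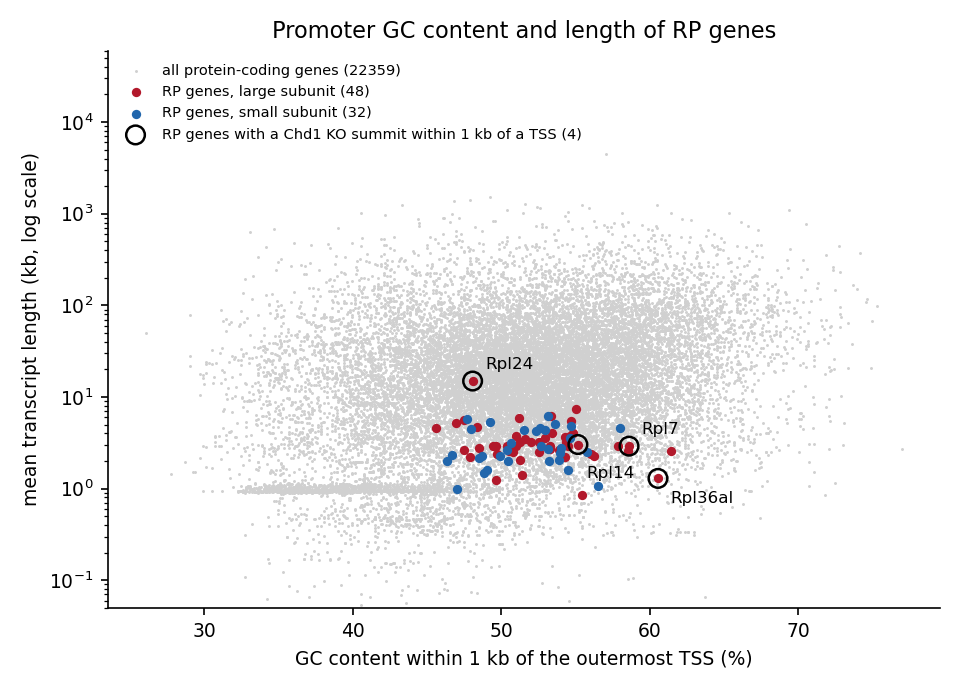
Mean transcript length in kb (log scale) against GC content in percent within 1 kb of the outermost TSS, with 22359 protein-coding genes in gray, 48 large-subunit RP genes in red and 32 small-subunit RP genes in blue. Circles mark the 4 RP genes with a Chd1 KO summit; the RP genes fill a band of GC content from 45.6% to 61.5% at lengths from 0.849 to 14.9 kb.

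The share of genes with a Chd1 KO summit was then compared within 5 classes of promoter GC content that hold nearly equal numbers of all protein-coding genes. No RP gene fell into the class with the lowest GC content. From 44.2% to 49.2% GC, 1 of 18 RP genes had a summit (5.56%, interval 0.988% to 25.8%), and this was Rpl24. Its GC content of 48.1% is that around its outermost TSS, 8138 bp from the summit, while the peak itself has 74.2%. The shares there were 3.52% of all genes and 1.15% of genes shorter than 5 kb. From 49.2% to 53.1% GC, 0 of 27 RP genes had a summit, which allows a share of up to 11.1%, a limit above the 7.37% of all genes and the 2.43% of short genes. From 53.1% to 57.2% it was 1 of 29, Rpl14 (3.45%, interval 0.611% to 17.2%), beside 18.6% of all genes and 7.53% of short genes. In the class with the highest GC content, 57.2% to 77.0%, it was 2 of 6, Rpl36al and Rpl7 (33.3%, interval 9.68% to 70.0%), beside 48.4% and 31.8%.

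In each class that held RP genes, the interval or limit of the RP genes of any length took in the share of genes shorter than 5 kb. It also took in the share of all genes except from 53.1% to 57.2% GC. There the upper bound of 17.2% lay below the 18.6% of all genes. Among RP genes shorter than 5 kb, the counts from low to high GC were 0 of 13, 0 of 26, 1 of 24 and 2 of 6. Their intervals or limits (23.1% for 0 of 13 and 11.5% for 0 of 26) also took in the share of genes of that length. In the class from 44.2% to 49.2% the only summit was that of Rpl24, whose start at the peak is uncertain. By length alone, 3 of the 69 RP genes shorter than 5 kb had a summit (4.35%, interval 1.49% to 12%), beside 5.58% of all genes of that length. Of the 10 RP genes between 5 and 10 kb none had one, a number too small to compare with the 9.62% of all genes. Whether GC content and length account for the lower share of the RP genes was not tested.

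**Figure D3:**
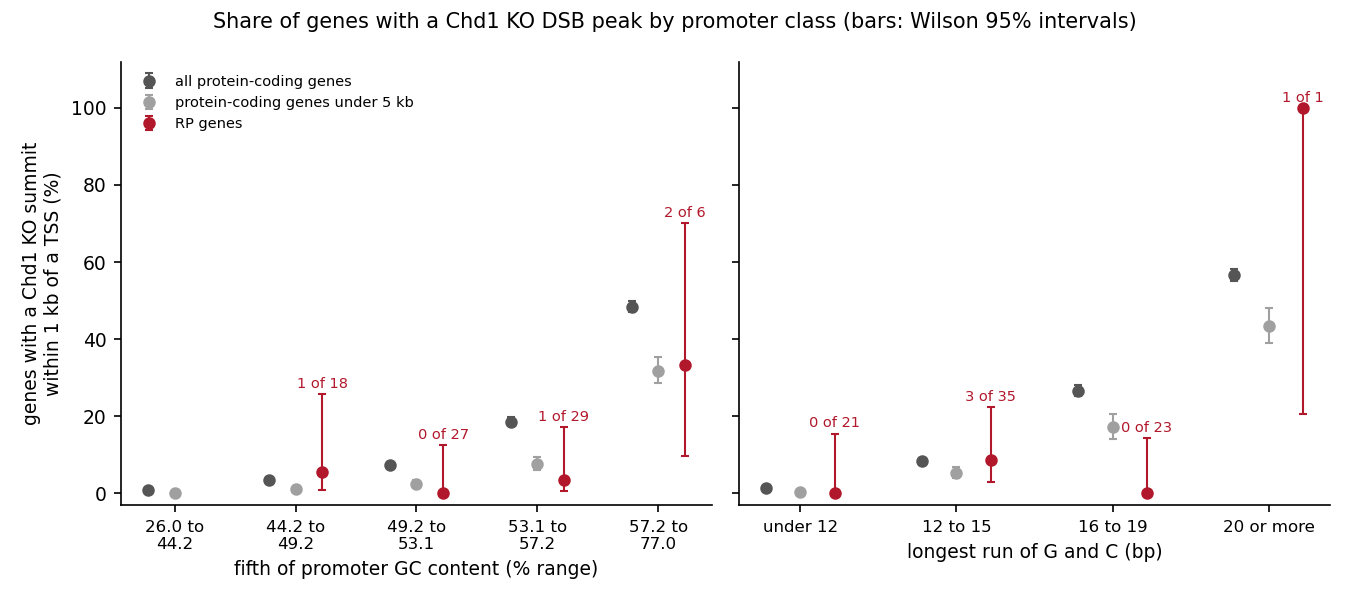
Percent of genes with a Chd1 KO summit within 1 kb of a TSS, by class of promoter GC content in percent (left) and by longest run of G and C in bp (right), for all protein-coding genes (dark gray), protein-coding genes under 5 kb (light gray) and RP genes (red), with Wilson 95% intervals as bars and RP counts above. The RP genes lie between 0 of 27 and 2 of 6 over the GC classes that hold them.

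Among RP genes without a summit, Rpl10a had the highest promoter GC content (61.5%), above that of all the RP genes with a peak. It encodes the protein of the mobile stalk beside the exit site of tRNAs, and its nearest Chd1 KO summit lay 21.8 kb downstream, at the start of Tead3. The next were Rpl7a (58.6%), Rps19 (58.0%), the gene most often mutated in Diamond-Blackfan anemia, Rpl12 (57.9%), which belongs to the base of the stalk that binds translation factors, and Rps21 (56.5%). A GC content in this range was thus found in RP promoters with and without a called peak.

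For each gene the longest stretch free of A and T within 1 kb of the outermost TSS was also measured. Its median was 14 bp for the RP genes, 12 bp for all protein-coding genes and 21 bp for genes with a Chd1 KO summit. A run of at least 20 bp was present in 1 RP promoter, that of Rpl36al (1.25%, interval 0.221% to 6.75%), beside 3665 promoters of all genes (16.4%). At the lower limit of 16 bp the shares were close, 24 RP promoters (30%, interval 21.1% to 40.8%) and 30.9% of all. The run of 20 bp at Rpl24 is not counted here because it lies more than 1 kb from the outermost TSS of that gene.

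By run length, 0 of 21 RP genes with runs shorter than 12 bp had a summit, beside 1.49% of all genes. With runs of 12 to 15 bp it was 3 of 35 (8.57%, interval 2.96% to 22.4%), Rpl14, Rpl24 and Rpl7, beside 8.41% of all genes and 5.25% of genes shorter than 5 kb. With runs of 16 to 19 bp it was 0 of 23, which allows a share of up to 13%. In that class 26.7% of all genes and 17.1% of short genes had a summit, both above the limit of the RP genes. The class was singled out after its values were seen, and the difference was not tested. Of all genes with a run of at least 20 bp, 56.6% had a summit, and Rpl36al, the only RP gene there, was among them.

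**Figure D4:**
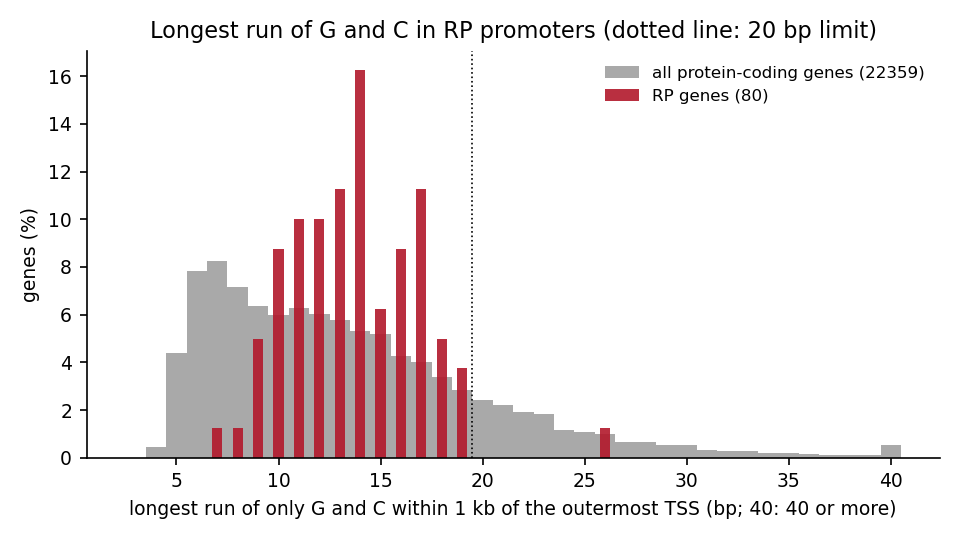
Percent of genes against the length in bp of the longest run of G and C within 1 kb of the outermost TSS, for 22359 protein-coding genes (gray) and 80 RP genes (red), with the dotted line at the limit of 20 bp. RP genes gather around their median of 14 bp, and 1 RP gene, Rpl36al with 26 bp, lies beyond the line.

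The RP genes with the longest runs and no called peak are the counterpart of the sequences shown for the peaks. Rpl10, Rpl35 and Rps29 had runs of 19 bp, and Rpl26, Rpl36 and Rplp0 had runs of 18 bp. The runs of 19 bp and that of Rplp0 are shown with the bases beside them, 30 bases of mm9 read 5′ to 3′ on the strand of the gene, and the capitals mark the run. They lie at chrX:71516337-71516366 (plus), chr2:38860527-38860556 (minus), chr12:70259830-70259859 (minus) and chr5:116010013-116010042 (plus).
Rpl10: catcatGGGCCGCCGCCCCGCCCGGtggtg
Rpl35: gacagtGGCGCGGGGCGCGGGGCGGacggg
Rps29: tagctaGGCCGGGCCGGGCGGGCCCtgctg
Rplp0: ggatctCCCCCCCCCCCCCCCGCGttccag
The run at Rpl10, a gene whose protein joins the large subunit late in its assembly, lies in a coding exon. Those at Rpl35, Rps29 and Rplp0 lie in introns. Each of these runs is longer than those in the peaks at Rpl14 and Rpl7. Each is shorter than those in the peaks at Rpl24 (20 bp) and Rpl36al (26 bp). The genes without a peak were picked for their long runs, so the comparison shows only that the lengths overlapped.

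At their starts the RP genes shared features that the choice of symbols did not use. A pyrimidine tract, defined as at least 8 consecutive C or T on the sense strand overlapping the 10 bp on either side of a TSS, was found at 46 RP genes (57.5%, interval 46.6% to 67.7%) and at 22.4% of all protein-coding genes. Each annotated TSS was searched, and RP genes had a median of 2 TSSs beside 1 for all genes. At the outermost TSS alone, the counts were 25 RP genes (31.3%) and 13.7% of all genes. With every TSS searched, a tract was present at 23 of 48 large-subunit genes (47.9%) and 23 of 32 small-subunit genes (71.9%). Counted tracts may lie largely before the annotated TSS, as at Rpl34 (20 bases, starting at −17 bp) and Rps23 (19 bases, starting at −16 bp). Whether the tracts act in translational control was not measured. The start sequences of the RP genes with peaks are shown beside the longest tracts and the start of Rpl3. Each is 30 bases of mm9, 5′ to 3′ on the strand of the gene, and the capitals mark the tract where it has at least 8 bases. In the order shown they lie at chr17:24857183-24857212 (plus), chr3:130433248-130433277 (minus), chr13:91062756-91062785 (plus), chr14:25309932-25309961 (plus), chr9:120480618-120480647 (plus), chr16:55966489-55966518 (plus), chr12:70284959-70284988 (minus), chr1:16094729-16094758 (minus) and chr15:79913822-79913851 (minus).
Rps2: tgaTTTCCTTTTTTTCCTCTTCTTTTTgtc
Rpl34: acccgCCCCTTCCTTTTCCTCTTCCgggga
Rps23: cctgcaCCTCCTCTCTCTTTCTCTTgggcc
Rps24: gagcggTCCTCTTTTCCTCCTCTCCagctc
Rpl14: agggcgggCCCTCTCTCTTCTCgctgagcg
Rpl24: cccatgaTTCTTTCTTTCTCTTCgccatct
Rpl36al: cgcggcggccggtctctcggtaagtctgga
Rpl7: cctggagaaattaagcccagagctgacgag
Rpl3: cacgttcgcacgctcagggggcggagccat
The tracts measured 24 bases at Rps2, 20 at Rpl34, 19 at Rps23 and Rps24, 16 at Rpl24 and 14 at Rpl14. Of the RP genes with a Chd1 KO summit, Rpl14 and Rpl24 had a tract at an annotated start and Rpl36al and Rpl7 had none. The tract of Rpl24 lies at a start of its shorter transcripts and not at the one beside the peak. An annotated TSS may miss the start used in these cells, so the lack of a tract in a window describes the annotation.

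Short motifs were searched from 250 bp before to 50 bp after the outermost TSS on both strands, except TATAAA, which was searched on the sense strand. CCGGAAG, the core of ETS-family sites, was found at 24 RP promoters (30%, interval 21.1% to 40.8%) and 10.9% of all promoters of the same length. AAGATGG, the core of the YY1 motif, was found at 9 (11.3%) and 6.72%, and both were held by 2 RP promoters (2.5%, interval 0.688% to 8.66%) and 0.899% of all. GGGCGG, the core of the Sp1 motif, was found at 38 (47.5%) and 44.0%, and TATAAA at 5 (6.25%) and 9.10%. A match describes the sequence and not binding. A ratio of observed to expected CpG of at least 0.6 was reached by 63 RP promoters (78.8%, interval 68.6% to 86.3%) and 33.9% of all, with a median ratio of 0.686 beside 0.469. The median ratio was similar in translation factor genes (0.688) and ribosome biogenesis genes (0.654) and was 0.737 in genes with a Chd1 KO summit. Lower medians were those of nuclear oxidative phosphorylation genes (0.603), mitochondrial ribosomal protein genes (0.596) and Rps6k genes (0.483).

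Several further features of RP genes were compared with the calls. At least 1 snoRNA gene lay inside 30 RP genes (37.5%, interval 27.7% to 48.5%), beside 1.2% of all protein-coding genes, and together they held 58 of the 1552 annotated snoRNA genes. None of these 30 had a Chd1 KO summit, which allows a share of up to 10%, beside 59 of all 269 genes with a snoRNA (21.9%, interval 17.4% to 27.3%). The part of gene length in that difference was not tested. A TSS of another gene on the opposite strand lay within 1 kb for 14 RP genes (17.5%) and for 11.3% of all. Of these 14, only Rpl36al had a summit (7.14%, interval 1.27% to 31.5%), beside 20.2% of all such genes. A single annotated TSS was found for 35 RP genes, none of them with a summit, beside 10.8% of all genes with 1 TSS.

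RP genes have many processed copies in the genome, which can prevent reads from being placed. The share of 50-base words in the promoter window that occur once in the assembly had a median of 95.5% for RP genes and 100% for all protein-coding genes, and the lowest value was 78.4%, at Rpl37a. At least 90% of words were unique at 70 RP promoters (87.5%) and at 85.6% of all. Among those 70, 3 had a Chd1 KO summit (4.29%), beside 3462 of all 19137 such genes (18.1%). Words that differ from a copy by a base count as unique here, and the part of repeated sequence in the counts was not tested.

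The RP genes lie on 19 chromosomes, and chromosome 7 holds more of them, 14, than any other. The X-linked genes Rpl10, Rpl36a, Rpl39 and Rps4x had no Chd1 KO summit, and 7 of all 932 X-linked protein-coding genes had one (0.751%). Rpl39, whose protein lines the exit tunnel, lay farthest from a Chd1 KO summit, at 21976 kb, followed by Rpl36a at 18813 kb. Outside the X chromosome the farthest was Rps7, at 2752 kb.

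The distance from the RP genes to the nearest Chd1 KO summit had a median of 49.6 kb (95% interval 27.5 to 91.6 kb), which takes in the 90.3 kb of all protein-coding genes. The lower quartiles were 20.9 kb and 20.8 kb. A summit lay within 5 kb of 5 RP genes (6.25%, interval 2.70% to 13.8%), beside 17.5% of all. Within 10 kb it was 12 (15%, interval 8.79% to 24.4%), and this interval took in the 19.8% of all. At longer range the share of RP genes was the higher, with 40 within 50 kb (50%, interval 39.3% to 60.7%) beside 37.7%, and 52 within 100 kb (65%, interval 54.1% to 74.5%) beside 52.4%. These shares describe the distances and were not tested. The median distance was 33.8 kb for the large subunit and 79.7 kb for the small subunit, with 95% intervals of 21.4 to 85.3 kb and 25.8 to 144 kb that overlap.

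The place of the nearest summit was compared with that of other genes. Of the 76 RP genes without a summit, 52 had their nearest one within 1 kb of the TSS of another protein-coding gene, 14 inside a gene away from its TSSs and 10 in neither. The first of these shares was 68.4% (interval 57.3% to 77.8%), beside 62.4% of all 18844 protein-coding genes without a summit. The RP gene without a summit that lay nearest to one was Rpl23a, which encodes a protein at the mouth of the exit tunnel, with a summit 4.95 kb downstream at the start of Tlcd1. Rpl35a followed at 5.40 kb from a summit at Lmln, and Rplp0, the base of the stalk that binds translation factors, at 5.81 kb from one at Gcn1l1. Rpl3, a large-subunit protein near the peptidyl transferase center, came next at 7.89 kb, and Rpl38 at 8.23 kb, with a summit inside Ttyh2. Some neighbors in the genome shared a nearest summit, as Rps29 did with Rpl36al, whose peak lay 24.9 kb upstream of it. This case was chosen after its values were seen.

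Control peaks were far from RP genes. On the chromosomes with a control peak, 76 RP genes had a median distance of 26701 kb to the nearest control summit, beside 21248 kb for all protein-coding genes there. Rps20, a protein of the head of the small subunit, had its nearest Chd1 KO summit at 377.938 kb and its nearest control summit at 377.894 kb, so both lists have a peak at that place. Rpl24, Rpl35a, Rpl39l and Rps23 lie on chromosomes without a control peak.

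**Figure D5:**
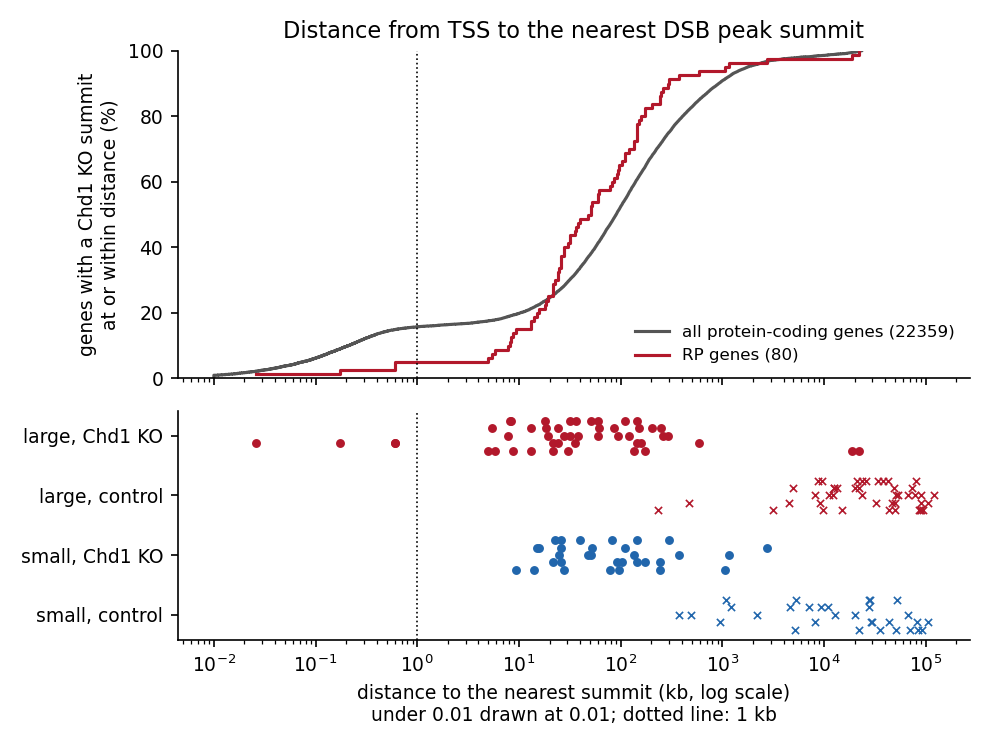
Cumulative percent of genes against the distance in kb (log scale) from the TSS to the nearest Chd1 KO summit (top; all protein-coding genes in gray, RP genes in red), and the distances of single RP genes by subunit to the nearest Chd1 KO (dots) and control (crosses) summit (bottom). The RP curve lies below that of all genes at 1 kb (5% and 15.7%) and above it at 100 kb (65% and 52.4%).

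Related gene lists give a scale for the RP count, and their members were chosen by symbol. Of 73 mitochondrial ribosomal protein genes 5 had a Chd1 KO summit (6.85%, interval 2.96% to 15.1%), and the highest fold enrichments were 4.90 at Mrpl40, 4.78 at Mrps16 and 4.29 at Mrps35. Like the RP genes these are short, with a median length of 7.05 kb and a median promoter GC content of 49.5%. Of 86 nuclear genes of oxidative phosphorylation 6 had one (6.98%, interval 3.24% to 14.4%), led by Uqcrh at 5.44, Atp5g3 at 5.02 and Atp5h at 4.64. The 6 include Cox4nb, a neighbor of Cox4i1 that the symbol pattern brings in and that shares its peak. Their median length was 7.26 kb and their median GC content 50.9%.

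For 3 lists of genes that work with the ribosome, the interval of the share took in the 15.7% of all protein-coding genes. Of 50 genes for ribosome biogenesis and RNA Pol I 7 had a summit (14%, interval 6.95% to 26.2%), with the highest fold enrichments at Rrp8 (6.33), Ncl (4.74), the nucleolin gene, and Gnl3 (4.72), the nucleostemin gene. Of 71 genes named as translation factors 16 had one (22.5%, interval 14.4% to 33.5%), led by Eif4e3 (6.43), Eif4g1 (5.97) and Eif2c4 (5.73), the last an Argonaute gene. The symbol pattern brings in Argonaute genes under their Eif2c symbols, and Eif2c2 (4.51) is also among the 16. The median length of these translation factor genes was 17.1 kb and their median GC content 54.3%. Of the 10 Rps6k genes, whose products include the kinases of the RP Rps6, 3 had a summit (30%, interval 10.8% to 60.3%), Rps6ka1 (4.63), Rps6kb1 (4.53) and Rps6ka5 (4.30), at a median length of 54.9 kb. The interval of the RP genes ended at 12.2%, below the 14.4% at which that of the translation factors began, and it overlapped those of the other lists. No control summit lay within 1 kb of a TSS in any of these lists, and differences between lists were not tested.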

How the data were processed

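DSB-seq peaks of Chd1 KO and control mouse embryonic stem cells were taken from the deposited lists. The authors aligned reads to mm9 with Bowtie2, combined the 2 replicates of each genotype and ran MACS2 with 0.05 as the limit on the q-value. They then removed peaks that overlapped blacklisted regions, and the removed peaks were not used here. The fold enrichment is a ratio of the deposited lists, reads over local background within the combined library, and is not scaled between genotypes. The −log10 p-values and −log10 q-values are also those of the authors. Solving fold enrichment (reads plus 1 over background plus 1) and Poisson p-value together gave the reads and background at a summit, and gave back the p-values to within 1.35e-04 on the −log10 scale.

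The members and lists were chosen with earlier results of these data known. Shares carry Wilson 95% intervals and a count of 0 the limit of 3 counts. Promoter windows reached 1 kb to either side of the outermost TSS of the protein-coding transcripts, and genes were taken from chromosomes 1 to 19, X and Y of GENCODE M1. The text names every member with a summit within 1 kb, Rpl3, and among the members without one the 5 with the highest GC content, the 5 with the nearest Chd1 KO summit and the 5 with the longest run of G and C with ties kept. It also names the 3 longest, the 3 shortest and the 3 with the lowest GC content, and in each related list the 3 with the highest fold enrichment. Some results on single genes are not reported here. Rpl37a, Rps7, Rps20, the X-linked members, the members on chromosomes without a control peak and those shown for the longest pyrimidine tracts were chosen after their values were seen. Alternatives changed the TSSs, the window, the position of a peak, the cutoff, the members, the definition of GC content, length, run and tract, and the assignment of shared summits. Among 80 members, 59 were matched by symbol in the RefSeq promoter sequences of GRCm38.p6, used in 1 alternative.

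Computations used Python 3.11.15, NumPy 2.4.6, pandas 2.3.3, SciPy 1.17.1, numba 0.67.0, pysam 0.24.0 and samtools 1.23.1, with figures from Matplotlib 3.10.9. Counting, distance and sequence functions were tested on simulated data. Signal tracks, ChIP-seq and expression were not used here.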

Additional observations from a re-analysis of the deposited data

How the results depend on the processing

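Of 60 alternatives, 37 left the value within its interval or, for counts, within 1.5 times, and 23 did not. The count of RP genes with a Chd1 KO summit was 2 (2.5%) when the window ended 100 bp past the TSS on the downstream side. These were Rpl36al and Rpl7, beside 2113 of all genes (9.45%). Within 500 bp the RP count was also 2 (2.5%, Rpl14 and Rpl36al), beside 3212 of all genes (14.4%). The RP count thus left its limit of 1.5 times there, and that of all genes did not. Both windows leave out the other RP summits by construction. With genes of 1 annotated TSS only, the RP count was 0 of 35, and that of all genes 1288 of 11904, since the RP genes with a summit have several TSSs. Under the remaining alternatives the RP count lay between 3 and 5 and that of all genes between 2811 and 3922, and the control count for RP genes was 0 in each alternative tried. Median GC content rose to 56.9% (RP) and 54.8% (all) within 500 bp, and to 59.2% and 57.3% within 250 bp. For all genes it was 50.7% as a mean over TSSs, and the cause was not tested. Median length was 3.24 kb for RP genes by the span of the gene and by the longest transcript, and 15.1 kb and 15.0 kb for all genes, measures that are longer by construction. Runs of at least 16 bp were present in 24 RP promoters and 6913 of all, and runs of at least 24 bp in 1787 of all. The pyrimidine tract was found at 25 RP genes and 3072 of all at the outermost TSS, where fewer starts are searched, and at 28 of 59 RP genes and 2441 of 14964 genes at RefSeq starts, where fewer genes are matched and the rest of the cause was not tested. For all genes it was 9575 with at least 6 bases and 2700 with at least 10.

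The nearest-TSS assignment, the removal of the Rpl24 transcript, the limit on unique sequence, the cutoff at the weakest control p-value and the RefSeq starts were chosen after seeing the data. With the nearest-TSS assignment, without that transcript or with unique promoters, the RP count was 3. No paired analysis was possible because the replicates, although they share numbers in the labels, were combined before peak calling and the lists carry none. Peaks under 13 extended reads in Chd1 KO or 17 in control are not in the lists, which limits the calls at RP promoters, and 80 genes limit each share to the width of its interval.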
